A study of Mus musculus with 2 samples.

Results

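The genes described here are 38 genes of extraembryonic endoderm, liver and trophoblast, read in CH cells of mouse blood. They were taken by name, 23 as genes of visceral or hepatic endoderm, 3 of parietal endoderm and 12 of trophoblast. Of the 38, 33 had at least 1 probe set that named them alone in the platform annotation, out of 18193 such genes in all, and these 33 were covered by 65 probe sets out of 45037. Each of 2 pools of CH cells gave RNA for 1 Affymetrix array of the mouse genome. CH cells are small cells sorted as negative for the pan-leukocyte antigen CD45, the lineage antigens and a dead-cell dye and positive for a dye of DNA. According to the submitters' notes, the cells came from untreated C57bl/6 mice of both sexes, 7 months old, 15 mice to a pool, while the paper's general methods give younger mice and smaller pools. The submitters call the pools biological replicates, and the SD given here measures the spread between these 2 pools. The p-values test how far a mean lies from a fixed limit, defined below. Their variance is moderated over all probe sets, so they do not follow the SD of a probe set alone. They too rest on these 2 pools. There is 1 group, so no condition was compared with another.

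Visceral endoderm is the absorptive and secretory epithelium of the yolk sac, and before the liver forms it makes many of the proteins that hepatocytes later release into plasma. Parietal endoderm lies across the yolk cavity and lays down a thick basement membrane known as Reichert's membrane. Trophoblast is the outer lineage of the blastocyst and forms most of the placenta, from dividing stem cells to giant cells and syncytial layers that secrete hormones. All of these lineages separate from the pluripotent cells of the embryo early.

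The arrays gave near-equal readings. Across all probe sets, which are not independent replicates, Pearson's r was 0.997, and the log2 difference between the arrays had an SD of 0.20. Signals are log2 values as deposited. The limit was 5 (log2), the value under which the study's methods drop genes before clustering, and a gene counted as above it if both arrays exceeded 5 in 1 or more of its probe sets. Of all 18193 genes, 71.2% were above the limit. As background, chemosensory receptor genes, which serve smell and taste, were used, and these were above it in 13 of 78 cases, and the highest of them, Vmn1r44, was at 6.92. A level between 5 and 6.92 therefore lay within the range of background probe sets. The upper end of this range rests on Vmn1r44 alone, and the next receptor gene, Vmn1r148, was at 6.50. Each probe set has its own affinity, so levels are set against the limit and this background range, and not against each other as amounts of transcript. In pooled RNA, few cells with much of a transcript and many cells with little of it cannot be told apart.

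Of the 33 measured genes, 19 were above the limit, and 5 of these, Thbd, Apoe, Ets2, Dab2 and Plat, were also above 6.92 on both arrays. Over all genes, 48.3% exceeded 6.92. These counts take a gene at its highest probe set. Levels given below for genes of further lists do the same, and their other probe sets can lie far lower. When a gene was read as the median of its probe sets, only Thbd and Apoe, which have 1 probe set each, stayed above 6.92, against 37.7% of all genes. The median level of the 33 genes was 5.61, against 6.84 for all genes. With limma, 19 of the 33 were above 5 and 11 below 5 at an adjusted p under 0.05, where 69.1% and 23.6% of all genes were called in these directions. Higher limits gave lower counts, with 10 of the 33 above 6 (57.8% of all genes), 10 above 6.02, the 95th percentile of background probe sets (57.6%), and 5 above 8 (37.0%). With the demand that every probe set of a gene exceed 5, 10 remained (50.4% of all genes). At limits of 5, 6 and 8, the share of these genes was below that of all genes. The counts above 5 were 11 of 22 for visceral or hepatic endoderm, 3 of 3 for parietal endoderm and 5 of 8 for trophoblast. The other 5 genes, Trf, Gcm1, Prl3d1, Prl2c2 and Syna, had no probe set naming them alone.

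**Figure D1:**
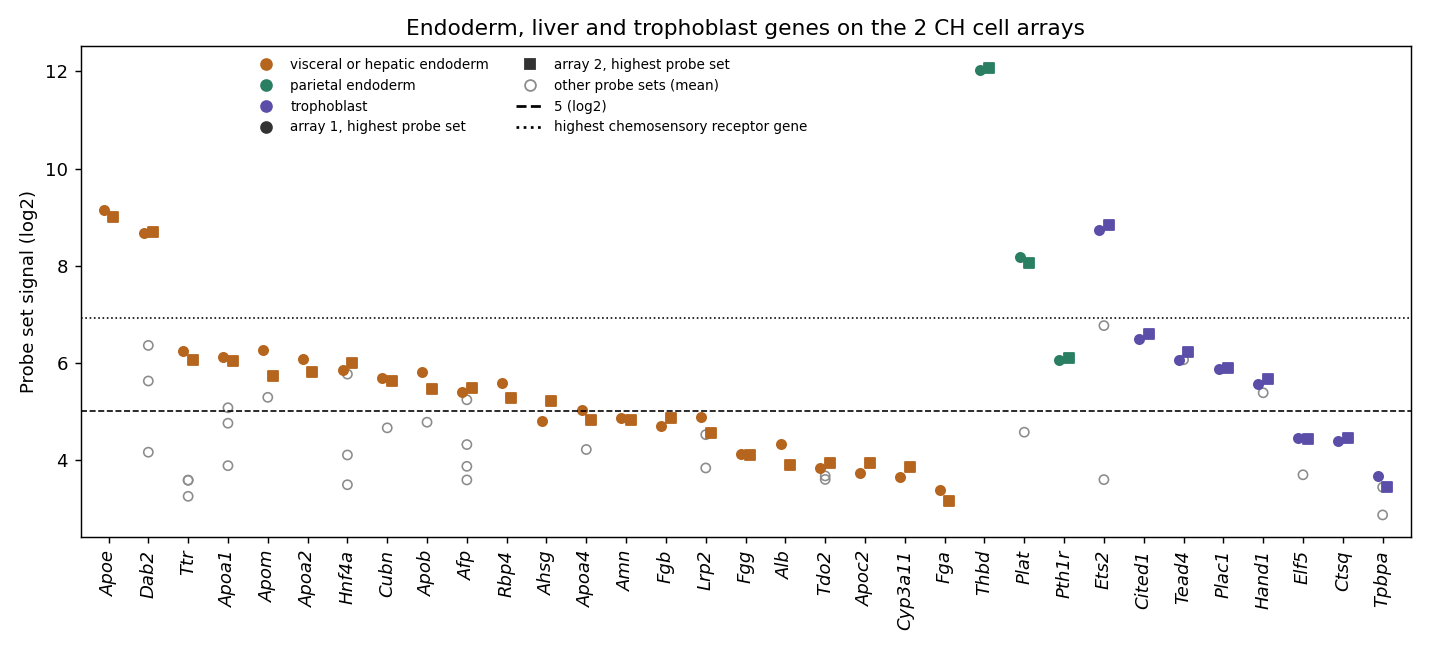
Log2 signal of the 33 measured genes on the 2 CH cell arrays, with a filled circle for array 1 and a filled square for array 2 for the probe set with the highest mean, open circles for the means of its other probe sets, and colours for the 3 groups. The dashed line marks 5 and the dotted one 6.92, the level of Vmn1r44. Thbd, Apoe, Ets2, Dab2 and Plat lie above the dotted line on both arrays.

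The sequences just before the transcription start are shown for 5 genes of the visceral or hepatic group, because liver genes are classically driven from short promoters that bind the hepatocyte factor HNF1. Each line gives the 130 bases upstream of an annotated start, from RefSeq (GRCm38.p6). Capitals mark GTTAAT, the unit that is repeated in the HNF1 site, or its reverse complement ATTAAC. Alb and Afp are neighbours on chromosome 5, and Fga and Fgb lie close together on chromosome 3.
Alb (chr5:90460740-90460869, plus strand): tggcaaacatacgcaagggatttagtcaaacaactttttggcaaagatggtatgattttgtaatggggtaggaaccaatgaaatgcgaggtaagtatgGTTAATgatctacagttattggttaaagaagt
Afp (chr5:90490584-90490713, plus strand): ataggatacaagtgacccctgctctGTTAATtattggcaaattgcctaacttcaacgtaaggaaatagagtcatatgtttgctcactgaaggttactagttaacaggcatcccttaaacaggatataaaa
Fga (chr3:83026023-83026152, plus strand): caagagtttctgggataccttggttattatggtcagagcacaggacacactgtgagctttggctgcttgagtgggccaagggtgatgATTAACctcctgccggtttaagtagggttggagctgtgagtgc
Fgb (chr3:83049864-83049993, minus strand): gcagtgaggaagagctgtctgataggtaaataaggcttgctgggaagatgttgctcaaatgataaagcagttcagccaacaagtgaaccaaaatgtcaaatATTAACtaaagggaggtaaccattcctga
Apoc2 (chr7:19677942-19678071, minus strand): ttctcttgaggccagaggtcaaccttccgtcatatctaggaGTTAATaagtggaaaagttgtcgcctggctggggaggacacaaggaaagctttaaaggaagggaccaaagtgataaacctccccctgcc

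The promoters of Ets2 and Apoe, which were among the 5 genes above the background range, are shown as well, with each CG dinucleotide in capitals. Apoe has 3 annotated starts, and the most upstream was taken. Its 130 bases hold 6 CG dinucleotides, and those of the other starts hold 2 and 6. In the stretches above, CG was not marked, and it occurs 2 times each in Alb and Apoc2, 1 time each in Afp and Fga and 0 times in Fgb.
Ets2 (chr16:95702277-95702406, plus strand): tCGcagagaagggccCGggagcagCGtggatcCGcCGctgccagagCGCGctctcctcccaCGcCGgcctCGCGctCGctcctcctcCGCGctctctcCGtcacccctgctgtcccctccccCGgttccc
Apoe (chr7:19699189-19699318, minus strand): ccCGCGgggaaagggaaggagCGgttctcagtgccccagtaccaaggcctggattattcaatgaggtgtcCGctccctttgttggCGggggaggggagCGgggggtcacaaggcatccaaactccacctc

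Of 5 measured carrier proteins that liver and yolk sac secrete, 3 were above the limit (71.2% of all genes) and 0 above 6.92 (48.3%). Alb, which encodes albumin, the main protein of adult plasma, read 4.33 on array 1 and 3.89 on array 2, below 5 on both (adjusted p = 9.2e-04 from limma). Afp, its fetal counterpart made by yolk sac and fetal liver, read 5.40 and 5.48 with its highest probe set. Of the 5 probe sets of Afp, 2 were above the limit, and the lowest was at 3.59. Only with its 2 higher probe sets was Afp on the other side of the limit from Alb, and then well inside the background range. The median over its 5 probe sets, 4.32, was below the limit, as was Alb.

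Ttr, the carrier of thyroxine, read 6.24 and 6.07 with 1 probe set, while its other 3 probe sets lay between 3.25 and 3.59. Rbp4, the carrier of retinol, read 5.59 and 5.27. Ahsg, also called fetuin-A, an inhibitor of mineral deposition, read 4.79 and 5.21 and so crossed the limit on array 2 only (adjusted p = 0.98 from limma). For Trf, the iron carrier transferrin, the only probe set also names Srprb and was at 5.25, so it was not counted.

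Among the apolipoproteins, 5 of 7 were above the limit, near the share of 71.2% over all genes. Apoe was the only one outside the background range. Apoe, a ligand of lipoprotein receptors that many cell types secrete, read 9.14 and 9.01 (adjusted p = 2.6e-07 from limma), at a level of 9.07 ± 0.09 (SD, n = 2 arrays). Apoc2, the activator of lipoprotein lipase, read 3.74 and 3.94. These genes belong to the same cluster, and both arrays placed them on opposite sides of the limit.

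Apoa1, the main protein of high-density lipoprotein, read 6.12 and 6.03 with its highest probe set, and its other probe sets were at 5.08, 4.76 and 3.88. Apoa2, also of high-density lipoprotein, read 6.07 and 5.82. Apom, a carrier of sphingosine 1-phosphate, read 6.27 and 5.72, and its other probe set 5.32 and 5.26. These 3 genes were above the limit on both arrays and inside the background range. Without probe sets whose names end in _s_at or _x_at, Apoa1 was not above the limit. Apob, the structural protein of very-low-density lipoprotein, read 5.81 and 5.46, with its other probe set at 4.78. Apoa4, made mainly by intestine, read 5.03 and 4.82 and was above 5 on array 1 only (adjusted p = 0.42 from limma).

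The order of the genes along the chromosome gives a further view. From Apoc2 through Apoc4 and Apoc1 to Apoe, the means were 3.84, 5.31, 5.68 and 9.07. In the cluster of Apoa1, Apoc3, Apoa4 and Apoa5, Apoc3 read 3.91 and 4.10. The means of the other genes, in that order, were 6.08, 4.92 and 5.92. Genes above and below the limit were thus interleaved, but without _s_at and _x_at probe sets Apoa1 was not above it. Next to Alb and Afp, the third gene of the family, Afm, read 6.44 and 5.96. Apoe was the only gene of these clusters above 6.92. Apoc1, Apoc3, Apoc4, Apoa5 and Afm were added because of their position.

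**Figure D2:**
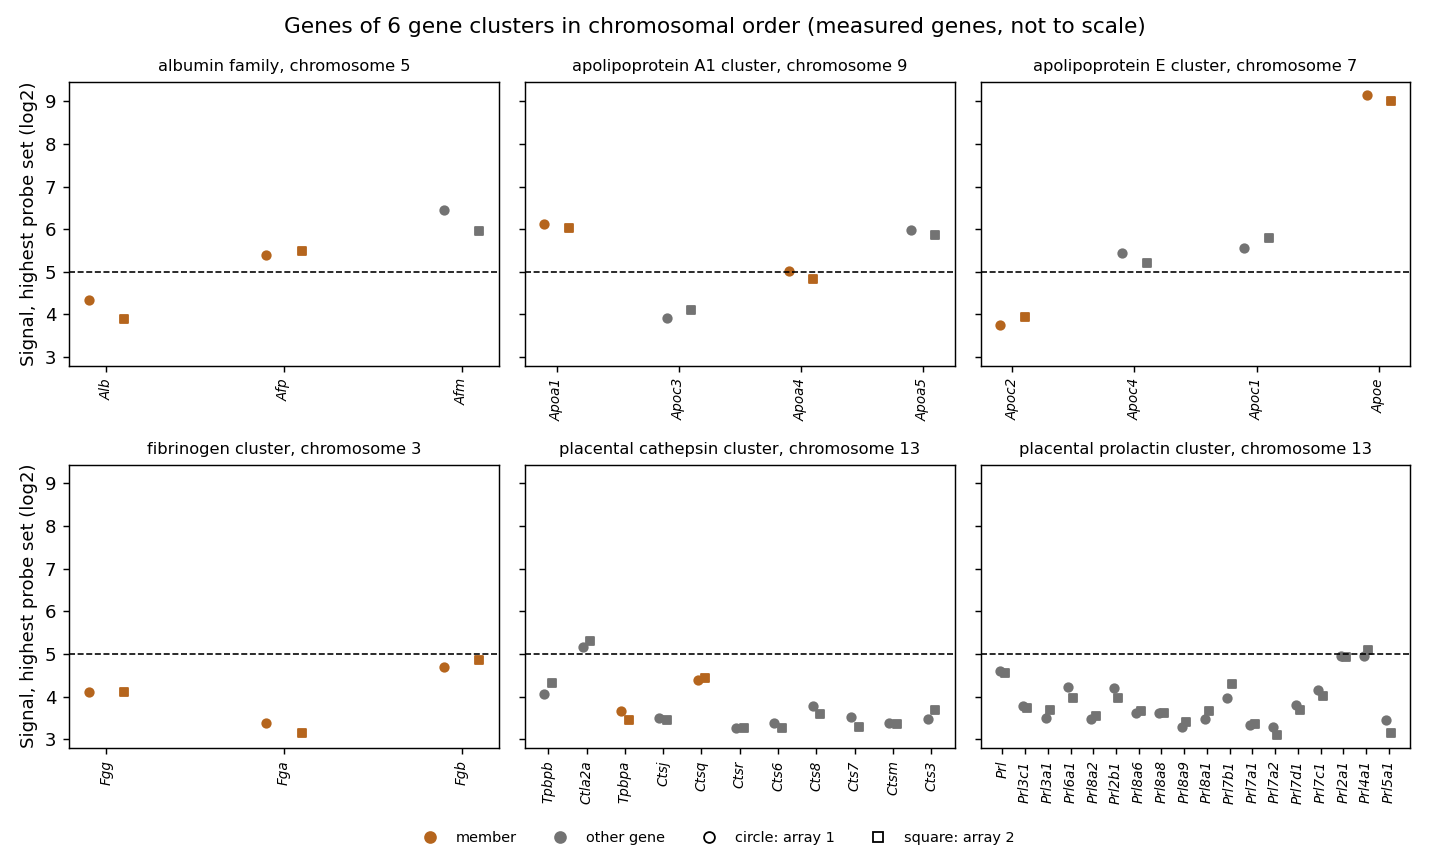
Log2 signal of the highest probe set for measured genes of 6 gene clusters, in chromosomal order and not to scale, with circles for array 1 and squares for array 2 and with the genes described here in brown. The dashed line marks 5. In the cluster of Apoe, the probe sets of Apoc4, Apoc1 and Apoe lie above the dashed line and that of Apoc2 below it, and 0 of 18 measured genes of the prolactin cluster were above 5 on both arrays.

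Visceral endoderm and the proximal tubule of the kidney take up proteins through a receptor complex in which cubilin binds the ligand, amnionless anchors cubilin, megalin drives uptake and the adaptor Dab2 links the complex to clathrin. Of these 4 components, 2 were above the limit on the CH cell arrays (71.2% of all genes). The level of the adaptor depended on the probe set. Dab2 read 8.68 and 8.69 with its highest probe set (adjusted p = 2.7e-07 from limma), and the remaining ones had means of 6.36, 5.63 and 4.16, so that 3 of 4 were above the limit and 1 above 6.92. Cubn, for cubilin, read 5.68 and 5.62 with 1 probe set and 4.73 and 4.60 with the other. The name of the higher one ends in _s_at, and without such probe sets Cubn was not above the limit. Amn, for amnionless, read 4.87 and 4.83 (adjusted p = 0.091 from limma). Lrp2, for megalin, read 4.89 and 4.55 with the highest of its 3 probe sets (adjusted p = 0.045 from limma). Cubn and the Dab2 probe sets at 6.36 and 5.63 were thus above the limit and inside the background range.

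Further genes of endocytosis were read from a list of partners. Of 14 measured genes, 12 were above the limit (71.2% of all genes) and 10 above 6.92 (48.3%). The highest were Rab11a and Rab5a, small GTPases of endosomes, at 11.47 and 11.17, and Lrpap1, the chaperone of megalin and related receptors, at 10.60. Most of these are used by many cell types. Of 13 measured genes of kidney proximal tubule, Cubn and Lrp2 among them, 7 were above the limit and 1, the urate transporter Slc22a12 at 7.15, above 6.92. Kap, an androgen-regulated kidney protein, was at 6.37 and the glucose transporter Slc5a2 at 6.12.

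The fibrinogen chains Fga, Fgb and Fgg, which form the soluble precursor of fibrin, were below 5 on both arrays. Fga read 3.38 and 3.15, Fgb 4.71 and 4.86 and Fgg 4.12 and 4.10. With limma, 3 of the 3 were below 5 at an adjusted p under 0.05, with the highest value for Fgb at 0.044, and 0 were above 5, also at an unadjusted p under 0.05. Hnf4a, the nuclear receptor that directs the gene programme of visceral endoderm and hepatocytes, read 5.86 and 6.00 with its highest probe set, and its other probe sets were at 5.77, 4.10 and 3.49. It was thus above the limit and inside the background range. The enzymes of mature hepatocytes were below the limit, with Tdo2, which breaks down tryptophan, at 3.84 and 3.94 and Cyp3a11, which oxidizes drugs and steroids, at 3.65 and 3.85.

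Of 26 further plasma proteins of liver that were measured, 5 were above the limit, and with limma 4 were above 5 and 17 below 5. Their median level was 4.62, and of all genes 71.2% were above the limit. The highest were Itih2, a hyaluronan-binding protein, at 8.21, the ferroxidase ceruloplasmin, Cp, at 7.00, and haptoglobin, Hp, at 5.63. Of 28 further hepatocyte enzymes, transporters and receptors, 8 were above the limit at a median of 4.58, with the urea cycle enzyme Asl at 8.47, Fah of tyrosine breakdown at 6.57 and Arg1 at 5.77. Of 16 further lipoprotein genes, 12 were above the limit. The highest were Scarb1, the receptor for high-density lipoprotein, at 9.46, the lipid exporter Abca1 at 9.42 and the transfer protein Pltp at 9.11. The 3 probe sets of Abca1 had a median of 5.42, inside the background range, and the lowest was at 4.03.

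Transcription factors of endoderm were above the limit in 11 of 14 cases (71.2% of all genes), and 5 of the 14 exceeded 6.92 (48.3%). The highest were the nuclear receptors Nr2f2 at 11.44 and Nr2f1 at 9.39 and the endoderm factor Sox17 at 8.22. Of the 6 probe sets of Nr2f2, 4 were above the limit, and the lowest was at 3.71. Gata6, an early factor of primitive endoderm, was at 8.21, and Gata4 read 5.54 and 5.46, both named after their values were seen. Of 15 other genes of visceral endoderm, 13 were above the limit and 9 above 6.92, with a median of 7.85. Rhox5, a homeobox gene of extraembryonic tissues, was at 13.37, the glucose transporter Slc2a3 at 12.35 and the proteoglycan Gpc3 at 10.45. Several genes on these lists, such as those of Nodal signalling and of glucose uptake, are used outside visceral endoderm too, and Sox17 is also a factor of definitive endoderm.

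**Figure D3:**
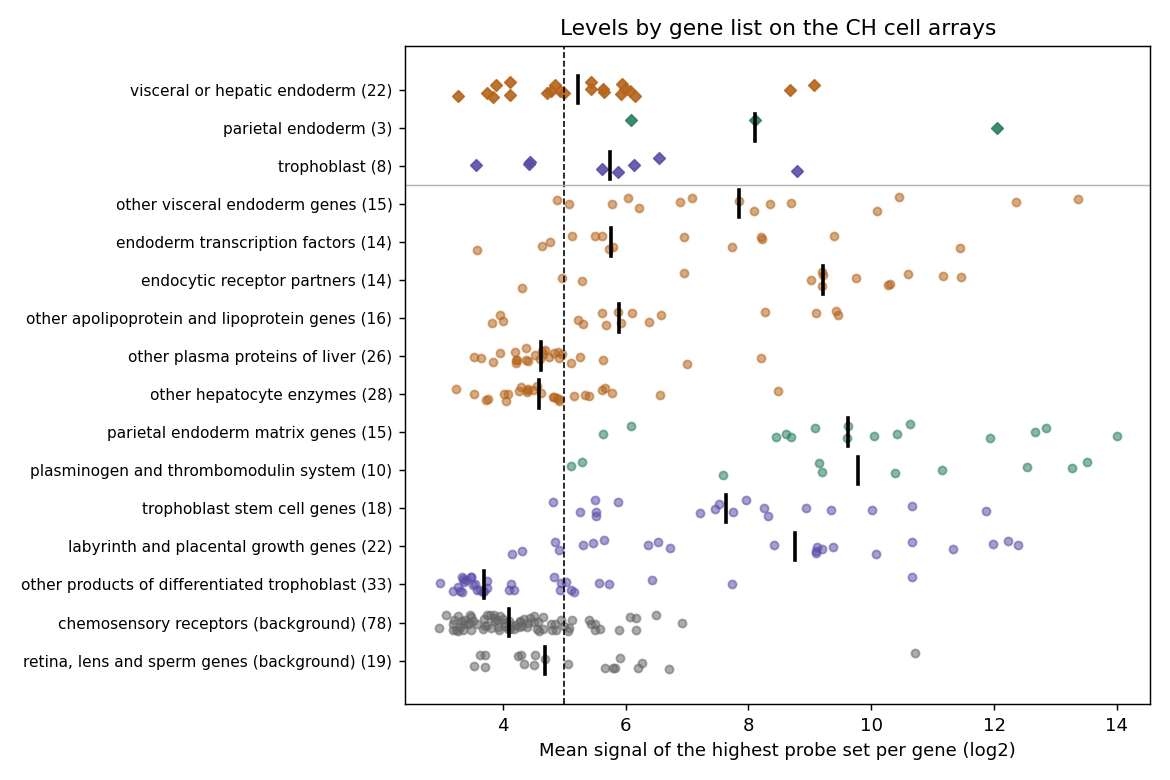
Level (mean of both arrays, log2 signal) of CH cells by gene list, with 1 symbol for the highest-reading probe set per gene, a black bar at the median and the number of measured genes in brackets. The 3 upper rows (diamonds) are the genes described here, and the dashed line marks 5. Medians are 5.22, 8.11 and 5.75 for these groups, 3.69 for other products of differentiated trophoblast and 4.11 for chemosensory receptors.

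All 3 genes of the parietal endoderm group were above the limit, where 71.2% of all genes were. Thbd encodes thrombomodulin, which binds thrombin at the cell surface and turns it toward activation of protein C. It read 12.02 and 12.07, at a level of 12.04 ± 0.03 (SD, n = 2 arrays; adjusted p = 8.9e-08 from limma), an intensity of 4222 on the linear scale. Plat, the tissue plasminogen activator, read 8.18 and 8.05 with 1 probe set and 4.68 and 4.46 with the other. Pth1r, the receptor for parathyroid hormone and its related peptide and an early gene of parietal endoderm, read 6.05 and 6.11, inside the background range. Thbd and 1 of the 2 probe sets of Plat exceeded that range on both arrays.

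Thrombomodulin and tissue plasminogen activator are also well known products of endothelium. Of 12 measured endothelial genes, 5 were above the limit (71.2% of all genes) and 1, Egfl7 at 7.32, above 6.92 (48.3%). The others with the highest levels were Kdr at 6.43 and Cldn5 at 5.53. Among genes named after their values were seen, Cdh5, for endothelial cadherin, read 5.07 and 5.20 with its highest probe set (adjusted p = 0.15 from limma). Its other probe set was at 4.14. Esam read 5.43 and 5.30, and both genes were above the limit but inside the background range. Pecam1, at 4.60 and 4.54, and Vwf, with a mean of 3.83, were below it. The part of endothelial cells in the levels of Thbd and Plat was not tested. Genes of the plasminogen and thrombomodulin system were above the limit in 10 of 10 cases (9 with limma). The highest were Anxa2 at 13.51 and its partner S100a10 at 13.27, which together bind plasminogen, and the thrombin receptor F2r at 12.54. The 3 probe sets of Anxa2 had a median of 6.07, inside the background range, and the lowest was at 3.65.

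Genes of the basement membrane and matrix that parietal endoderm makes were above the limit in 15 of 15 cases. Their median was 9.62, and of all genes 71.2% were above the limit. The highest were vimentin, Vim, which read 14.03 and 13.97, Sparc at 12.85 and the collagen chaperone Serpinh1 at 12.68. Lama1, the laminin chain of early embryonic basement membranes, named after its value was seen, was at 5.63, the lowest of the 15. Connective tissue cells make most of these proteins as well. Of 12 mesenchymal genes, of which 1 is on the matrix list too, 12 were above the limit. The highest were Col1a2 at 14.27, Fn1 at 13.93 and Col3a1 at 12.83. The part of connective tissue cells in the levels of the matrix list was not tested.

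Of 5 measured regulators of trophoblast, 4 were above the limit, 3 of them inside the background range, and of 3 measured products of differentiated trophoblast, 1 was above it. The share of all genes above the limit was 71.2%, and the difference between regulators and products was not tested. Ets2, an ETS factor that trophoblast stem cells need and that many growing cells express, read 8.75 and 8.83 with its highest probe set (adjusted p = 2.8e-07 from limma), and its other probe sets were at 6.77 and 3.60. Cited1, a coactivator that binds CBP and p300, read 6.49 and 6.59. Tead4, the factor that sets up trophectoderm, read 6.06 and 6.22 with 1 probe set and 6.14 and 5.99 with the other. Cited1 and Tead4 were above the limit with every probe set but inside the background range.

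Hand1, a basic helix-loop-helix factor of giant cells that also acts in mesoderm, read 5.57 and 5.66 with 1 probe set and 5.65 and 5.12 with the other. Elf5, an ETS factor that marks the trophoblast stem cell state, read 4.46 and 4.42 with the higher of its 2 probe sets (adjusted p = 6.9e-04 from limma, below 5). Gcm1, the factor of syncytiotrophoblast, had no probe set naming it alone.

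The families and partners of these regulators were read too, with 71.2% of all genes above the limit for comparison. Of 12 further genes of the ETS family, 10 were above the limit, with Elk3 at 10.73, Etv5 at 10.44 and Ets1 at 9.15. Of 10 genes of the TEAD family and its partners, 10 were above the limit. Amot, Wwtr1 and Lats1, which carry or restrain the Hippo signal to TEAD factors, were at 12.06, 11.29 and 10.75. The other probe set of Lats1 was at 4.62. Of 4 genes of the CITED family and its partners, 3 were above the limit, with Cited2 at 12.05, Crebbp at 9.23 and Ep300 at 8.95. Of 18 measured genes of trophoblast stem cells, 17 were above the limit and 11 above 6.92. Krt8 and Krt18, keratins of simple epithelia, were at 11.87 and 10.66 and Ddah1 at 10.02. Cdx2, a defining factor of trophectoderm that also acts in intestine, was at 7.46, while Gata3 was at 5.25, both named after their values were seen.

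Of the products of differentiated trophoblast, Plac1, a membrane-associated protein of placenta encoded on the X chromosome, read 5.87 and 5.89 (adjusted p = 9.3e-05 from limma, above 5). Tpbpa, the marker of spongiotrophoblast, read 3.67 and 3.45 with its highest probe set, and its other probe sets were at 3.44 and 2.87. Ctsq, a cathepsin of placental giant cells, read 4.40 and 4.45. Tpbpa and Ctsq were thus below 5 on both arrays with every probe set. Prl3d1, for placental lactogen, and Syna, for a fusion protein of retroviral origin, had no probe set naming them alone.

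These products lie in gene clusters on chromosome 13. In the cluster of Tpbpa, Ctsq and the other placental cathepsins, 1 of 11 genes was above the limit, Ctla2a at 5.23, which is no cathepsin but resembles the propeptide of one. In the prolactin cluster, 18 of 23 genes were measured. Of these 18, 0 were above the limit on both arrays, 0 were above 5 with limma at an adjusted p under 0.05, and 0 at an unadjusted p under 0.05. Prl4a1 came closest, at 4.96 and 5.09, and the median of the cluster was 3.70. Over the list of other products of differentiated trophoblast, 7 of 33 were above the limit (71.2% of all genes). With limma, 5 were above 5 and 22 below 5. The highest were the peptide hormone Adm at 10.67, the receptor Flt1 at 7.74 and the lactate transporter Slc16a3 at 6.42, which are also found outside the placenta.

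Prl2c2, which encodes a proliferin, a hormone of giant cells that was also cloned from growing mouse fibroblasts, is nearly identical to its paralogs. One probe set that names Gm7040, Prl2c2, Prl2c3 and Prl2c4 read 7.60 and 7.27, above the background range. A further probe set that names these genes and Prl2c5 read 3.30 and 3.11. Neither was counted, since neither can be assigned to 1 gene, and they lay on opposite sides of the limit.

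Genes of the labyrinth and of placental growth were above the limit in 18 of 22 cases (71.2% of all genes), with a median of 8.75. Slc16a1, a lactate transporter, was at 12.39 with 1 probe set and 4.62 with the other. Plac8 was at 12.23 and the glucose transporter Slc2a1 at 11.99. Most of the listed genes have roles in other dividing tissues.

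Promoter sequences were found for 31 of the 38 genes. The letters GTTAAT, read on either strand of 300 bases from 250 before to 50 after each start, occurred in 7.10% of all 32851 promoters and in at least 1 promoter of 6.27% of the 14452 measured genes that had one. They occurred in 8 of 21 genes of visceral or hepatic endoderm, 0 of 9 of trophoblast and 0 of 1 of parietal endoderm. The first letter of the marked unit lay 32 bases before the start in Alb, 105 in Afp, 43 in Fga, 29 in Fgb and 89 in Apoc2. The others with a match were Apoe, in 1 of 3 promoters and not in the one printed, and Dab2 and Hnf4a, each in 1 of 2. Of these 8 genes, 4 were above the limit (Afp, Apoe, Dab2 and Hnf4a) and 4 were not, while 71.2% of all genes were above it. Among all measured genes with a promoter, the letters occurred in 5.13% of those above the limit and 9.20% of those not above it. The motif was chosen after the levels were known, and a match of letters does not show binding.

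The number of CG dinucleotides per promoter, averaged over the starts of a gene, had a median of 5 in the 31 genes and of 17 in all measured genes. Among all measured genes, the median was 20 for those above the limit and 6 for those not above it. Among the genes described here, it was 9 for the 14 above the limit and 4.5 for the 14 not above it. Genes of visceral or hepatic endoderm had a median of 5, with Alb, Afp and Fga at 3 each, and those of trophoblast one of 4.5. Among the genes above 6.92 with a promoter sequence, Ets2 had 30, Apoe 11 and Dab2 10.5. All measured genes with a mean above 8 had a median of 22. Cited1 had 21.3 and Pth1r 18.3, at levels of 6.54 and 6.08. Rbp4 had 22.5, Lrp2 20 and Amn 15, at levels of 5.43, 4.72 and 4.85.

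**Figure D4:**
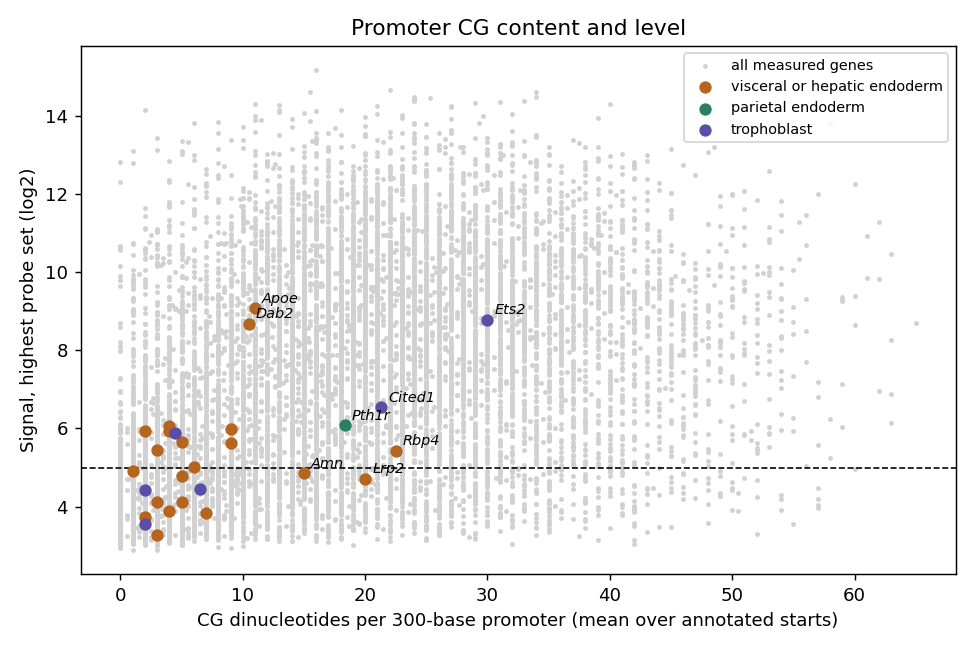
Log2 signal of the highest probe set against the number of CG dinucleotides in 300 bases around the start, averaged over annotated starts, for all measured genes with a promoter (grey) and for those described here (coloured by group). The dashed line marks 5. Of the 28 coloured points, 20 lie at fewer than 10 CG dinucleotides, and the median of all measured genes is 17. The coloured points above 6.92 lie at 11 (Apoe), 10.5 (Dab2) and 30 (Ets2). All measured genes with a mean above 8 have a median of 22.

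Markers of other cells that the sort could hold were read as well, and their part in these levels was not tested. Ptprc, which encodes CD45, the antigen that the sort removed, read 4.95 and 5.24. Leukocyte genes were above the limit in 8 of 11 cases, near the share of 71.2% over all genes. Lyz2 was at 9.58, Csf1r at 7.42 and Laptm5 at 6.69. Macrophages are a known source of Apoe, and macrophage genes were above the limit in 9 of 11 cases and above 6.92 in 3, namely Cd14 at 8.25, Mertk at 8.25 and Csf1r. Platelet genes were above the limit in 7 of 9 cases, with Itga2b at 7.18, Ppbp at 6.99 and Gp9 at 6.41. Erythroid genes were above it in 4 of 7, with the transferrin receptor Tfrc at 12.12, Epor at 7.14 and Gata1 at 6.38. Not above the limit were Itgam at 3.85, Adgre1 at 4.82 and C1qb at 4.75 of the leukocyte and macrophage lists. The same held for the platelet genes Nfe2 at 4.18 and Vwf at 3.83. It also held for the erythroid genes Alas2 at 4.91, Slc4a1 at 4.44 and Hba-a1 at 4.22. Those not above the limit were named after their values were seen. Genes of intestinal epithelium were above the limit in 4 of 12 cases, with Cdx2 and Fabp1 at 6.80 the highest, followed by Muc2, which read 5.48 and 4.77 and so was above 5 on array 1 only. Pluripotency genes were above it in 12 of 12 cases, led by Dppa5a at 10.44, Sall4 at 10.43 and Tdgf1 at 9.66.

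The difference between the arrays over the 65 probe sets had an SD of 0.22, close to that over all probe sets. Array 1 was higher in 36 of them and array 2 in 29. In 3 probe sets the difference exceeded 0.5, with a second probe set of Apoa4 at 4.54 and 3.89, that of Apom at 6.27 and 5.72 and a second one of Hand1 at 5.65 and 5.12. For the highest probe sets of Thbd, Apoe, Ets2, Dab2 and Plat it was at most 0.13, far less than their distance from 6.92. The other probe sets of Ets2, Dab2 and Plat differed by up to 0.27, for 1 of Dab2, and lay below 6.92.

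**Figure D5:**
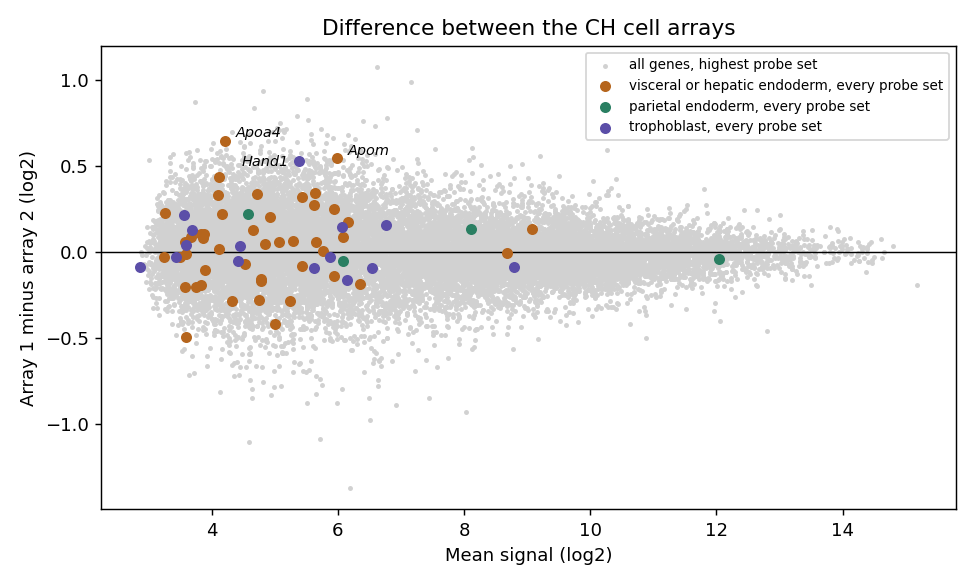
Difference between the 2 CH cell arrays (array 1 minus array 2, log2) against the mean log2 signal, in grey for the highest probe set of all genes and in colour for every probe set of the genes described here. Apoa4, Apom and Hand1 have probe sets with a difference above 0.5, and the coloured probe sets above 8 lie close to 0.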

How the data were processed

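Expression of CH cells was measured on 2 Affymetrix mouse genome arrays. The deposited values are log2 signals, 1 for each probe set. According to the study's methods, the authors ran RMA and quantile normalisation jointly on these arrays and on public ones. Whether the deposited table is from that run, and which versions were used, are not given in the sources used here. Quantile normalisation gives all arrays the same distribution, so a shift common to all genes cannot be seen. The number of arrays limits the precision.

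Of 45101 probe sets, 64 controls were left out. By the platform annotation, 34945 of the rest belong to a single gene and 932 to several, and 9160 have no entry. Genes were read from the single-gene probe sets. Entrez identifiers matched 34741 of them to GRCm38.p6 and changed 0 symbols. The highest probe set gave the level of a gene, as the mean of both arrays, and a gene was above the limit when at least 1 probe set exceeded 5 on both. Probe sets were set against 5 with limma 3.58.1 in R 4.3.3, in a fit with an intercept alone, two-sided. The variance was moderated over all probe sets, and the Benjamini-Hochberg adjustment was over 45037 probe sets. The fit was tested on simulated data. Python 3.11.15, numpy 2.4.6, pandas 2.3.3 and matplotlib 3.10.9 were used.

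The 38 genes, the 25 lists and the clusters were chosen with earlier results of these data known. Named were all 38 genes, the 3 highest genes of each list, Ptprc and the highest background gene, and others where the text says so. Of the control lists, housekeeping genes were above 5 in 7 of 7 cases, led by Eef1a1 at 14.65, Rplp0 at 14.47 and Actb at 14.39, and genes of retina, lens and sperm in 9 of 19, led by Cryab at 10.71, Prm1 at 6.70 and Crybb2 at 6.26. Promoters are from RefSeq. Other limits, normalization, probe set rules and the omission of each array were tried as alternatives.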

Additional observations from a re-analysis of the deposited data

Results flagged for a closer look

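The probe set shared by Gm7040, Prl2c2, Prl2c3 and Prl2c4 had a mean of 7.44, above 6.02, the 95th percentile of background (chemosensory) probe sets, and it stands outside the counts because it names several genes. It drew attention as a signal in data that no count used. The other shared probe set of these genes was at 3.20.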

How the results depend on the processing

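No paired analysis was possible because both arrays belong to 1 group. Where counts fell with a higher limit, its construction sets the direction. Of the 19 genes above 5, 10 remained at a limit of 6, with 4 of visceral or hepatic endoderm and 3 of trophoblast, and the same numbers (10, 4 and 3) at 6.02, the 95th percentile of background probe sets. At a limit of 8, the counts were 5 in all, 2 of visceral or hepatic endoderm and 1 of trophoblast, against 6738 of all genes. At 8.57, the 95th percentile for probe sets of retina, lens and sperm genes, they were 4, 2, 1 of parietal endoderm and 1 of trophoblast. When a gene was read as the median of its probe sets, 7 genes of visceral or hepatic endoderm were above 5, since Afp, Apoa1, Hnf4a and Ttr dropped out. When every probe set had to exceed 5, an alternative chosen after seeing the data, 10 genes were counted in all and 4 of visceral or hepatic endoderm, where 50.4% of all genes were. With either array left out, the count was 20, with Ahsg or Apoa4 added. Of the 5 genes above 6.92, 2 (Thbd and Apoe) remained with the median over probe sets and 2 when every probe set had to exceed it, and all 5 remained with quantile normalization, without _s_at and _x_at probe sets and with either array left out (all added after seeing the data). Limma, quantile normalization of both arrays, the omission of _s_at and _x_at probe sets and the inclusion of shared probe sets (added after seeing the data) moved no count of these groups by over 1.5 times. Apoa1 and Cubn dropped out when _s_at and _x_at probe sets were omitted. The levels of 13 of 33 genes moved by more than the SD between arrays under this median, and 2 without _s_at and _x_at probe sets. Quantile normalization moved 0 of 33 that far. The signals of this array give no depth.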
